A study of Saccharomyces cerevisiae with 67 samples.

Results

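The 35 genes described here encode the enzymes that take glucose to pyruvate, pyruvate to ethanol, acetate and acetyl-CoA, and pyruvate back towards glucose in the budding yeast Saccharomyces cerevisiae. They were taken by symbol from the R64 (sacCer3) annotation, in which all 35 were found among 6002 nuclear protein-coding genes, and each was set against the consensus list of regions with acetylated lysine 12 of histone H4 (H4K12ac). The study cultured strain BY4741 in rich glucose medium (YPD), as wt cells and as mip6D cells, which lack the RNA-binding protein Mip6. Each culture was divided over 3 flasks, of which 1 stayed at 30 °C and the others were brought to 39 °C, 1 for 20 min and 1 for 120 min, ahead of H4K12ac ChIP-seq. For wt cells the labels used here list 3 H4K12ac libraries at 30 °C, a single one for the 20 min flask (n = 1) and 4 for the 120 min flask. For mip6D cells they list 4, 3 and 4 in the same order. The authors called peaks on the H4K12ac samples and merged them into 1 list of 1970 regions, with no height and no sample name. Whether the merge took in samples beyond the 19 listed is not known from the sources used here. The list therefore says where a peak was called in at least 1 sample, and no strain, temperature or replicate can be compared in it. No test was made for this reason, and all differences between genes given here are descriptions of 1 list without replicate error.

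Glycolysis splits glucose into pyruvate, and in glucose-rich medium S. cerevisiae ferments most of that pyruvate to ethanol even when oxygen is present. Many steps have several isoenzymes. Some are the main enzyme in cells growing on glucose, and others are repressed by glucose, respond to stress, or are expressed at a low level. Gluconeogenesis runs the pathway backwards on ethanol or acetate and needs its own enzymes at the irreversible steps. The genes were split by this textbook knowledge, at a time when earlier results of these data were known. The main class held 16 genes: HXK2, PGI1, PFK1, PFK2, FBA1, TPI1, TDH2, TDH3, PGK1, GPM1, ENO2, CDC19, PDC1, ADH1, ALD6 and ACS2. The minor or glucose-repressed class held another 16, and PYC1, PYC2 and ADH3 were placed in neither class. The median gene length was 1388 bp in the main class and 1386 bp in the minor class.

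The sequences around the starts of 2 isoenzyme pairs and of 2 further genes are given first, as examples of starts with and without a region. In each pair the first gene had no H4K12ac region at its start and the second had one. Each stretch runs from 250 bp before the gene start to 50 bp into the gene, 5′ to 3′ on the strand of the gene, as read from the R64 genome. The gene start here is the first base of the coding sequence, so the true start of transcription lies within or before the upstream part. In the first 5 sequences, capitals mark TATAAA (the core of a TATA box), CTTCC (the core bound by the glycolytic activator Gcr1) and AGGGG (the stress response element), each on either strand. In that of PCK1, capitals mark the 119 bases that lay inside an H4K12ac region.
TDH3 (chrVII:883761-884060, minus strand): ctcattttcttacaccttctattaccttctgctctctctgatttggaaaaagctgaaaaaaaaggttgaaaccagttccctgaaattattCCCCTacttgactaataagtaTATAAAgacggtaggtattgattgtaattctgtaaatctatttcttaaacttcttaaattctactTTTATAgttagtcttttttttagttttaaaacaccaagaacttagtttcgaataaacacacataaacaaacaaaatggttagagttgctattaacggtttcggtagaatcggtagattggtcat
TDH2 (chrX:454632-454931, minus strand): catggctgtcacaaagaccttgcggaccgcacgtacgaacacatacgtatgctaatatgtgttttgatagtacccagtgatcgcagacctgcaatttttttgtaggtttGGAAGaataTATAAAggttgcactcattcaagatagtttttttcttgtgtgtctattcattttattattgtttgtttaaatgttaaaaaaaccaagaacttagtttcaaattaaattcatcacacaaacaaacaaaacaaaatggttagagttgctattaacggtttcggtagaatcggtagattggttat
ADH1 (chrXV:160545-160844, minus strand): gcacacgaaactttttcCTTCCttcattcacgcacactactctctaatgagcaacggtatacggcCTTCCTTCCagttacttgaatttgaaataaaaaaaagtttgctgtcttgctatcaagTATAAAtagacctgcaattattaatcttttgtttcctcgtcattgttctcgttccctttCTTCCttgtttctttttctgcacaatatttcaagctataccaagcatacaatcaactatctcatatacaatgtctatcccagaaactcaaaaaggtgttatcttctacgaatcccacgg
ADH2 (chrXIII:874288-874587, minus strand): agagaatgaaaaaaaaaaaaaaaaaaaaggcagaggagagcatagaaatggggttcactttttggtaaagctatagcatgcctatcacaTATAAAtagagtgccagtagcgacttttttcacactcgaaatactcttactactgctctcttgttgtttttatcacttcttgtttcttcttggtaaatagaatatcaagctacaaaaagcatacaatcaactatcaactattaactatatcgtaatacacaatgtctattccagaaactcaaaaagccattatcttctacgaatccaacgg
CDC19 (chrI:71536-71835, plus strand): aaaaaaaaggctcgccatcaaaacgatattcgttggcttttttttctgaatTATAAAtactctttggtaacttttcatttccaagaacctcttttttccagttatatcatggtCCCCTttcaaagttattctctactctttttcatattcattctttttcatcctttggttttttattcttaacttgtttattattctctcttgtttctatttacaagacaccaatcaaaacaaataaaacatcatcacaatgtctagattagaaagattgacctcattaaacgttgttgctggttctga
PCK1 (chrXI:630902-631201, plus strand): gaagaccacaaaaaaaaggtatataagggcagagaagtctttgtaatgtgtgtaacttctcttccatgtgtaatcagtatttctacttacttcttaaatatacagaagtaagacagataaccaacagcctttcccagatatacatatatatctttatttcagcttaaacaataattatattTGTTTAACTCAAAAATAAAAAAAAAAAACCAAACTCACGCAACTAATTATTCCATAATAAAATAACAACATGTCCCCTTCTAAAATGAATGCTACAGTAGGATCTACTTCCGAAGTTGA

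An H4K12ac region reached the start of 27 of the 35 genes, counting any overlap of at least 1 bp with the window of 100 bp on each side. Over all protein-coding genes the share was 90.5%, and over the 35 genes it was 77.1%. The 8 genes without a region were PFK1, PFK2, TDH3, ENO2, CDC19, PDC1, ADH1 and ACS1. Of these, 7 belonged to the main class and only ACS1 to the minor class. Regions thus reached the start of 9 of 16 main genes, 15 of 16 minor genes and all 3 genes in neither class. The same 27 genes had the start base itself inside a region, and in 26 of them the whole window lay inside. PCK1 was the exception, with 170 of the 201 bases of its window covered.

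**Figure D1:**
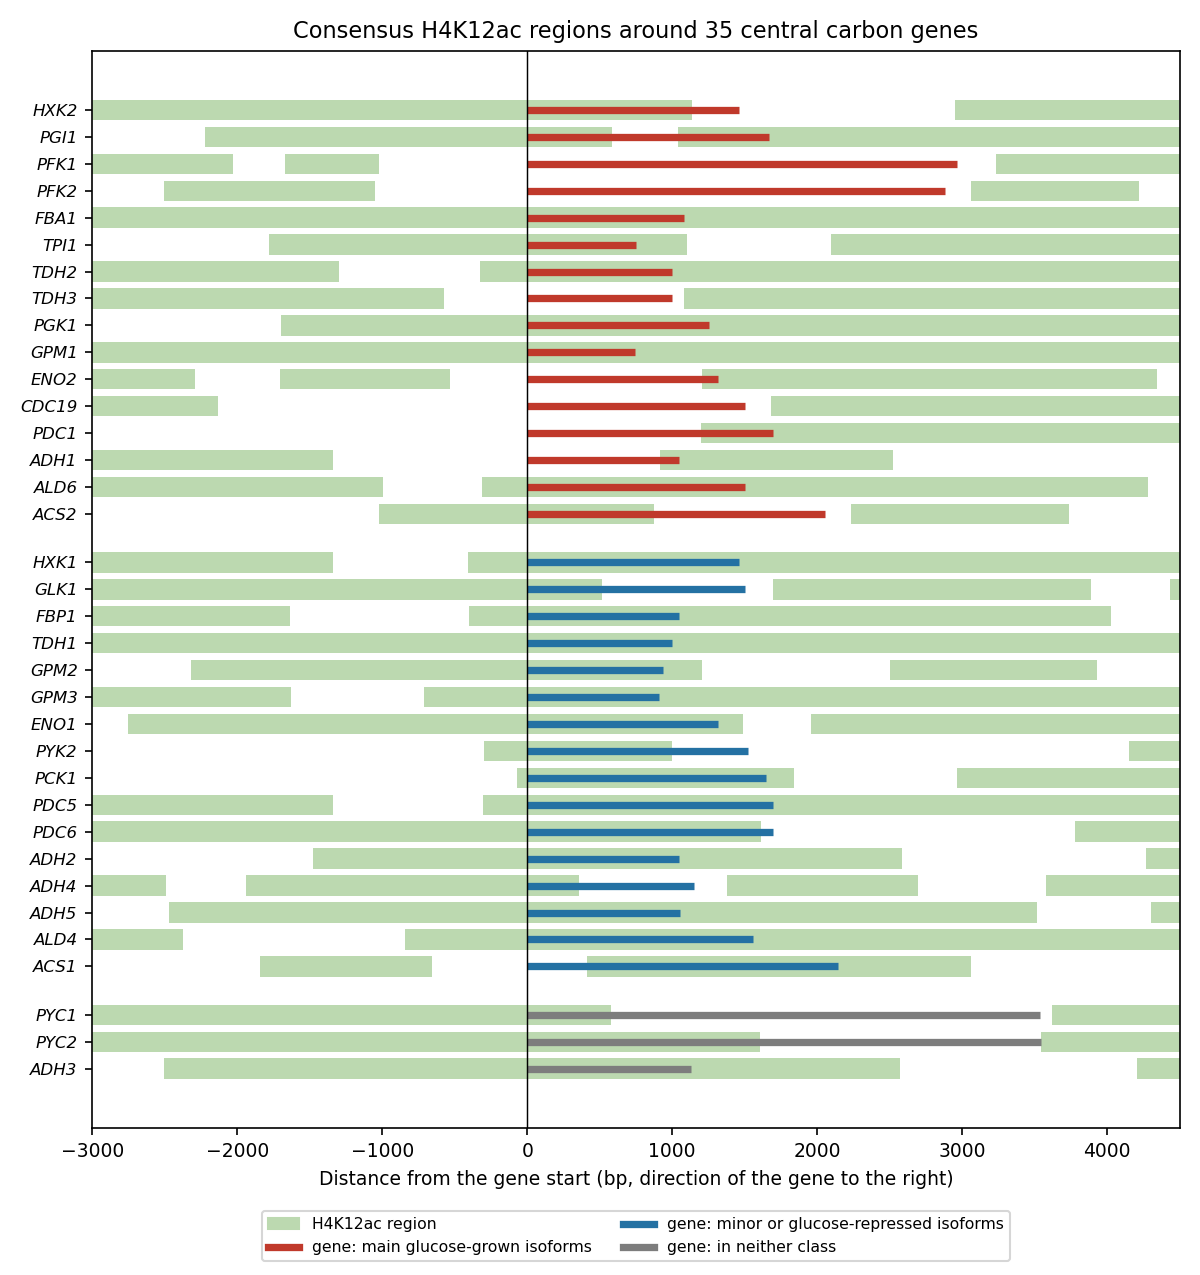
Position of the consensus H4K12ac regions (green) around the 35 genes, with the distance from the gene start in bp on the x axis and 1 gene per row, drawn in the direction of the gene. Coloured bars are the genes by class. Among the main genes, 7 of 16 have a gap in the green at their start, against 1 of 16 among the minor genes (ACS1).

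Coverage of the gene from start to end showed the same division. Regions covered at least 95% of the length in 19 of the 35 genes, where the share over all protein-coding genes was 56.0%. The count was 6 of 16 in the main class and 12 of 16 in the minor class. The median covered share was 57.8% of the gene in the main class and 100% in the minor class, beside 100% over all protein-coding genes. The median length of all protein-coding genes was 1200 bp, and longer genes had a lower covered share. Its median was 100% below 1500 bp, 61.6% from 1500 to 2000 bp and 33.3% from 2000 bp up. In the same order it was 100% (9 genes), 51.1% (4) and 0% (3) in the main class. In the minor class it was 100% (9), 97.6% (6) and 80.7% (1). The part of gene length was not tested. No base was covered in 4 genes, PFK1, PFK2, TDH3 and CDC19, all in the main class. Over all protein-coding genes 7.71% had no covered base. The peaks were called on H4K12ac libraries without the H4 libraries as a control, so less acetylation and fewer nucleosomes at a gene cannot be told apart in this list.

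Glucose phosphorylation is the entry step. HXK2 (YGL253W, chromosome VII, 23935 to 25395), the main hexokinase in glucose-grown cells, had its start in the region from 20423 to 25068, which covered 77.6% of the gene and ended 327 bp before its end. HXK1 (YFR053C, chromosome VI, 253592 to 255049), the glucose-repressed hexokinase, was covered over its whole length by the region from 247982 to 255458. GLK1 (YCL040W, chromosome III, 50838 to 52340), the glucokinase, was covered over its first 518 bp, or 34.5%. All 3 genes of this step therefore had a region at the start, and they differed in how far it ran into the gene. HXK1 and HXK2 lay within 30 kb of a chromosome end.

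The upper part of glycolysis held the longest uncovered genes. PFK1 (YGR240C, chromosome VII, 970771 to 973734) and PFK2 (YMR205C, chromosome XIII, 671887 to 674766) encode the alpha and beta subunits of phosphofructokinase, the step that commits sugar to glycolysis. Both were without a covered base. The gap that held PFK1 ran from 970499 to 974755, or 4257 bp, and its nearest region lay 1022 bp upstream of the gene start. The gap that held PFK2 ran from 671708 to 675815, or 4108 bp, and its nearest region lay 1050 bp upstream. In both cases the gap held 1 whole gene and no other gene start. The median distance between neighbouring regions of the list was 1617 bp.

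The other upper enzymes carried regions. PGI1 (YBR196C, chromosome II, 612236 to 613900), glucose-6-phosphate isomerase, had a region at its start and another over its last part, with 449 bp uncovered between them, from position 590 to 1038, and 73.0% covered in all. FBA1 (YKL060C, chromosome XI, 326408 to 327487), the aldolase, lay whole in a region of 8093 bp that also held the starts of MSN4, BLI1, MPE1 and TOA2. TPI1 (YDR050C, chromosome IV, 555726 to 556472), triose phosphate isomerase, lay whole in a region of 2878 bp that it shared with DET1. The phosphofructokinase subunits act together in 1 complex, and both of their genes lacked a region.

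In the lower part of glycolysis, the genes of glyceraldehyde-3-phosphate dehydrogenase differed among themselves. TDH3 (YGR192C, chromosome VII, 882812 to 883810), the most abundant isoenzyme in glucose-grown cells, had no covered base and lay in a gap of 1648 bp between the regions from 876697 to 882732 and from 884381 to 889671. TDH2 (YJR009C, chromosome X, 453683 to 454681) lay whole in the region from 448012 to 455007. TDH1 (YJL052W, chromosome X, 338271 to 339269), which is linked to stationary phase and stress, lay whole in the region from 331997 to 343606. The coding sequences of TDH3 and TDH2 were 95.8% identical, and those of TDH3 and TDH1 88.9%. The start of TDH3 lay 571 bp from the nearest region, which was upstream.

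The genes of the middle steps of lower glycolysis were covered. PGK1 (YCR012W, chromosome III, 137746 to 138996), phosphoglycerate kinase, lay whole in a region of 8571 bp. GPM1 (YKL152C, chromosome XI, 163642 to 164385), the active phosphoglycerate mutase, lay whole in a region of 17707 bp that held 10 gene starts, among them RPS27A, MCR1, SDH1 and RPT1. GPM2 and GPM3, its homologues of little or no known mutase activity, were covered whole as well, GPM2 in a region of 3528 bp and GPM3 in one of 7078 bp. In a region as long as that of GPM1, the list does not show which gene start the peaks belonged to.

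Enolase and pyruvate kinase, the last steps to pyruvate, had no region at the start of the main gene and a region at the start of the other gene. ENO2 (YHR174W, chromosome VIII, 451327 to 452640), the glucose-induced enolase, was covered only over its last 109 bp, or 8.30%, and its nearest region ended 530 bp upstream of the start. ENO1 (YGR254W, chromosome VII, 1000927 to 1002240), whose coding sequence was 94.8% identical to that of ENO2, lay whole in the region from 998174 to 1002416. CDC19 (YAL038W, chromosome I, 71786 to 73288), the main pyruvate kinase, had no covered base and the largest distance of all 35 genes, 1679 bp from its start to a region that begins beyond the gene end. PYK2 (YOR347C, chromosome XV, 984942 to 986462), the glucose-repressed pyruvate kinase, had its start in a region of 1302 bp that covered 65.8% of the gene and held no other gene start.

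Pyruvate decarboxylase, the first step of fermentation, showed the same arrangement. PDC1 (YLR044C, chromosome XII, 232390 to 234081), the main pyruvate decarboxylase, lay with its start in a gap of 4281 bp, the longest of the 8 gaps at these genes, and was covered over its last 494 bp, or 29.2%. PDC5 (YLR134W, chromosome XII, 410723 to 412414), which takes over when PDC1 is lost, lay whole in the region from 410416 to 419168. PDC6 (YGR087C, chromosome VII, 651290 to 652981), a minor isoenzyme, was covered over 95.3% by a region that it shared with CTT1, the cytosolic catalase. The distance from the gene start of PDC1 to the nearest region was 1198 bp, and that region lay downstream.

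Among the alcohol dehydrogenases, ADH1 was the gene without a region at its start. ADH1 (YOL086C, chromosome XV, 159548 to 160594) makes ethanol from acetaldehyde in fermenting cells. It was covered over its last 134 bp, or 12.8%, and its start lay 913 bp from the nearest region, in a gap of 2254 bp. ADH2 (YMR303C, chromosome XIII, 873291 to 874337), the glucose-repressed enzyme that oxidises ethanol, lay whole in the region from 871750 to 875814. ADH3 (YMR083W), the mitochondrial enzyme, and ADH5 (YBR145W) were also covered whole. ADH4 (YGL256W, chromosome VII, 15159 to 16307), which lies 15158 bp from a chromosome end and is known for induction under zinc limitation, was covered over its first 360 bp, or 31.3%.

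Acetate and acetyl-CoA synthesis differed from these steps. ALD6 (YPL061W, chromosome XVI, 432588 to 434090), the main cytosolic aldehyde dehydrogenase, and ALD4 (YOR374W, chromosome XV, 1039840 to 1041399), its glucose-repressed mitochondrial counterpart, were both covered whole. ACS2 (YLR153C, chromosome XII, 445524 to 447575), the acetyl-CoA synthetase of glucose-grown cells, had a region at its start that covered 42.6% of the gene. ACS1 (YAL054C, chromosome I, 42881 to 45022), its glucose-repressed counterpart, had none at the start. Its region began 413 bp into the gene and covered the other 80.7%. This was the only enzyme of the group in which a main gene had a region at its start and a minor gene did not.

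All 4 genes on the way back to glucose had a region at the start. FBP1 (YLR377C, chromosome XII, 873746 to 874792), fructose-1,6-bisphosphatase, lay whole in the region from 870763 to 875192. PCK1 (YKR097W, chromosome XI, 631152 to 632801), phosphoenolpyruvate carboxykinase, lay whole in the region from 631083 to 632992, which begins 69 bp upstream of the gene start and holds no other gene. The capitals in the sequence of PCK1 above show this upstream edge. PYC1 (YGL062W, chromosome VII, 385196 to 388732) and PYC2 (YBR218C, chromosome II, 658707 to 662249), the pyruvate carboxylases, are the longest of the 35 genes and were covered over 16.5% and 45.4%, in each case from the start.

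**Figure D2:**
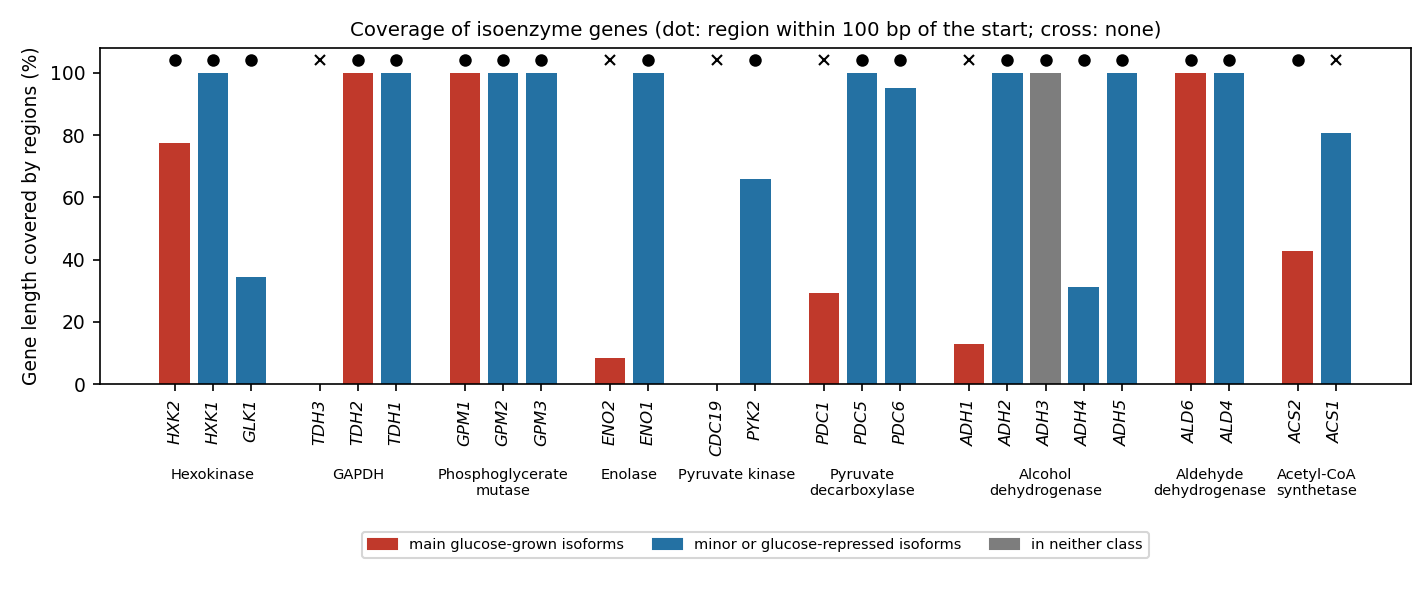
Share of the gene length covered by H4K12ac regions (y axis, in %) for 9 enzymes with isoenzyme genes, 1 bar per gene, coloured by class. The pyruvate carboxylase genes PYC1 and PYC2, covered over 16.5% and 45.4%, are not shown. A dot above a bar marks a region within 100 bp of the gene start and a cross marks none. Crosses stand over the main genes TDH3, ENO2, CDC19, PDC1 and ADH1 and over the minor gene ACS1.

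Reads of 50 bp cannot be placed uniquely when the same 50 bases occur elsewhere, and several isoenzyme genes are close copies, so the share of repeated 50-mers was measured beside the regions. A 50-mer shared by both genes of a pair counts in each, so equal values can follow from how the share is built. The share was equal in some pairs and unequal in others. In ENO2 and ENO1 it was 23.6% of the gene in both, and 34.9% of the start window in both. In ADH1 and ADH2 it was 14.0% in both, and in PDC1 and PDC5 0.974% in both. In TDH3 it was 24.4% and in TDH2, which was covered whole, 31.3%, while TDH1, also covered whole, had 15.7%. ADH3 and ADH5, both covered whole, and PDC6 held none. PFK1, PFK2, CDC19 and ACS1, which had no region at the start, held no repeated 50-mer either. The longest stretch shared without a mismatch had 173 bases in TDH3 and TDH2 and 189 bases in ADH1 and ADH2.

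Among the 31 genes with a start window free of repeated 50-mers, a region reached the start of 8 of 13 main and 14 of 15 minor genes. Over all protein-coding genes with such a window the share was 94.7%, and over those with repeated 50-mers in the window it was 12.7%. With no repeated 50-mer allowed in the whole gene, the counts were 8 of 11 main and 11 of 12 minor genes, and the share over all protein-coding genes was 95.2%. This stricter choice leaves out ADH1 and PDC1, whose start windows were free of repeats. The part of repeated sequence in the gaps at TDH3, ENO2, ADH1 and PDC1 was not tested.

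**Figure D3:**
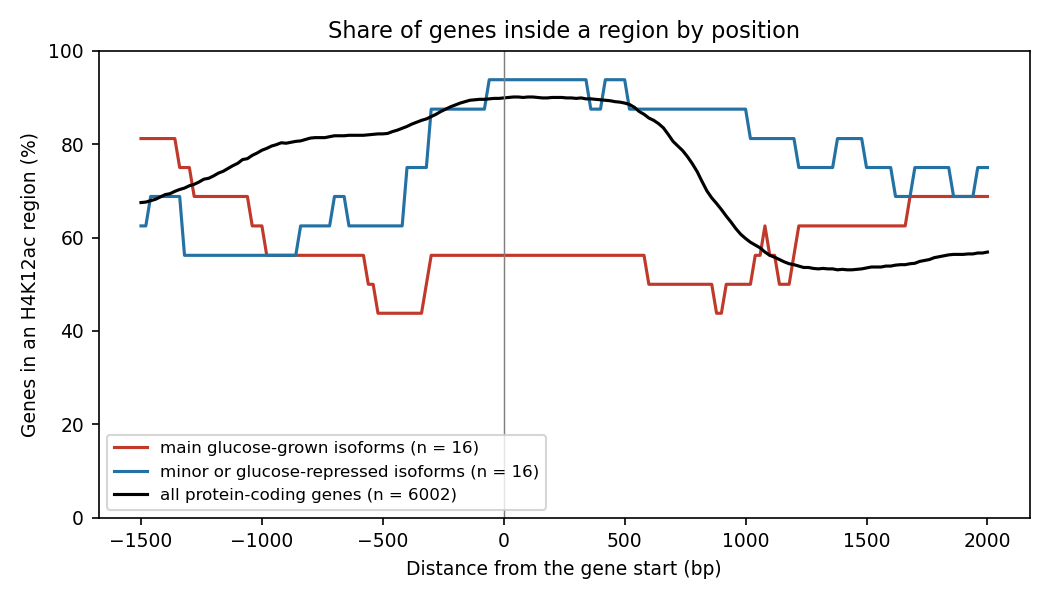
Share of genes (y axis, in %) that lay inside an H4K12ac region at each distance from the gene start (x axis, in bp, downstream to the right), in steps of 20 bp, for the 16 main genes, the 16 minor genes and all 6002 protein-coding genes. The main genes stay between 43.8 and 56.2% from 500 bp upstream to 500 bp downstream, while the minor genes reach 93.8% at the start.

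Followed by position, the difference between the classes changed with the distance from the start. At the gene start 56.2% of the main genes and 93.8% of the minor genes lay in a region, beside 89.9% of all protein-coding genes. At 500 bp upstream the shares, in the same order, were 43.8, 62.5 and 82.2%, and at 1500 bp upstream they were 81.2, 62.5 and 67.5%, so that the main genes then had the higher share. At 1000 bp downstream they were 50, 87.5 and 59.8%. Regions covered none of the 500 bp upstream of the start in 7 of 16 main genes and 1 of 16 minor genes, beside 7.61% of all protein-coding genes. These were the 8 genes without a region at the start.

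The 27 genes with a region at the start lay in 27 different regions, with a median length of 5301 bp and a range from 1302 to 17707 bp. Over all protein-coding genes with a region at the start, the median length of that region was 4819 bp. A median of 4 gene starts lay in the region of such a gene, and only PYK2 and PCK1 had a region with no other gene start. Regions of GPM1, TDH1 and PYC2 were among the longest 5% of the list. In 7 genes the region began 500 bp or less upstream of the start, at 69 bp in PCK1, 301 bp in PYK2, 307 bp in PDC5, 310 bp in ALD6, 326 bp in TDH2, 400 bp in FBP1 and 409 bp in HXK1. The other 20 regions began farther upstream, up to 10627 bp in GPM1. The gaps at PFK1, PFK2, TDH3, CDC19, PDC1, ADH1 and ACS1 held no other gene start, and that at ENO2 also held the start of YHR173C.

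A list of 23 further genes of the pathway and its control was read the same way. Regions reached the start of 21, or 91.3%, close to the 90.5% over all protein-coding genes, and covered a median of 84.4% of the gene, beside 100% over all. The median gene length was 1563 bp in this list and 1200 bp over all. The glycolytic activators GCR1, GCR2, RAP1 and TYE7 all had a region at the start, as did GPD1 and GPD2 of glycerol synthesis and ICL1, MLS1 and MDH2, which use acetate through the glyoxylate cycle. The exceptions were SIP4 and ADR1, activators of glucose-repressed genes. SIP4 (YJL089W) had its nearest region at 759 bp and was covered over 53.7%. ADR1 (YDR216W) had it at 1251 bp and had no covered base. ADR1 is an activator of ADH2, whose own start was covered.

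The upstream sequences were searched for short motifs on both strands, in the 250 bp before and 50 bp after the gene start. TATAAA was found in all 8 genes without a region at the start and in 17 of the 27 with one. Over 6001 promoters of protein-coding genes its share was 45.2%. By class, TATAAA was found in 13 of 16 main and 11 of 16 minor genes. CTTCC was found in 8 of 16 main and 9 of 16 minor genes (46.4% of all promoters), and AGGGG in 4 of 16 and 5 of 16 (21.6%). By presence of a region, CTTCC was found in 3 of the 8 genes without one and 17 of the 27 with one, and AGGGG in 2 of 8 and 9 of 27. The Rap1 consensus was also searched for and was found in 0 of the 35 genes and in 7 of the 6001 promoters. The consensus of the carbon source response element (CSRE) was found in 0 of the 35 and in 10 of the 6001. Both of these longer consensuses matched few promoters of any kind, and sites more than 250 bp before the gene start were not searched. Their counts of 0 therefore do not show that these genes lack such sites. Matches of different motifs may share bases, and a match describes the letters only, not a bound site.

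Codon use was measured as a codon adaptation index with the ribosomal protein genes as reference, a measure chosen after the regions had been examined. An index near 1 means that a gene uses the codons that these genes prefer. It was 0.923 in TDH3, 0.907 in PDC1, 0.898 in both ENO2 and CDC19, 0.828 in ADH1, 0.592 in PFK2 and 0.556 in PFK1. Covered genes had values as high, 0.909 in TDH2, 0.888 in ENO1 and 0.887 in FBA1. Of the 13 genes of this group within the top 2% of all genes, regions reached the start of 8, beside 89.3% of the 121 genes in that top share. Of these 121, 88 are ribosomal protein genes, of which 86 had a region at the start. They are the reference of the index, so their high values follow in part from how it is built. The 121 also include the 13 genes of this group. Among the 20 that are neither ribosomal nor of this group 14 had a region at the start, or 70%. The top 2% held 10 of the 16 main and 3 of the 16 minor genes, so the index was not independent of the classes. In the main class, regions reached the start of 5 of 10 genes within the top 2% and 4 of 6 below it. Over all protein-coding genes the share with a region at the start was 90.5%. High codon adaptation was found with and without a region at the start, and its relation to the regions was not tested.

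**Figure D4:**
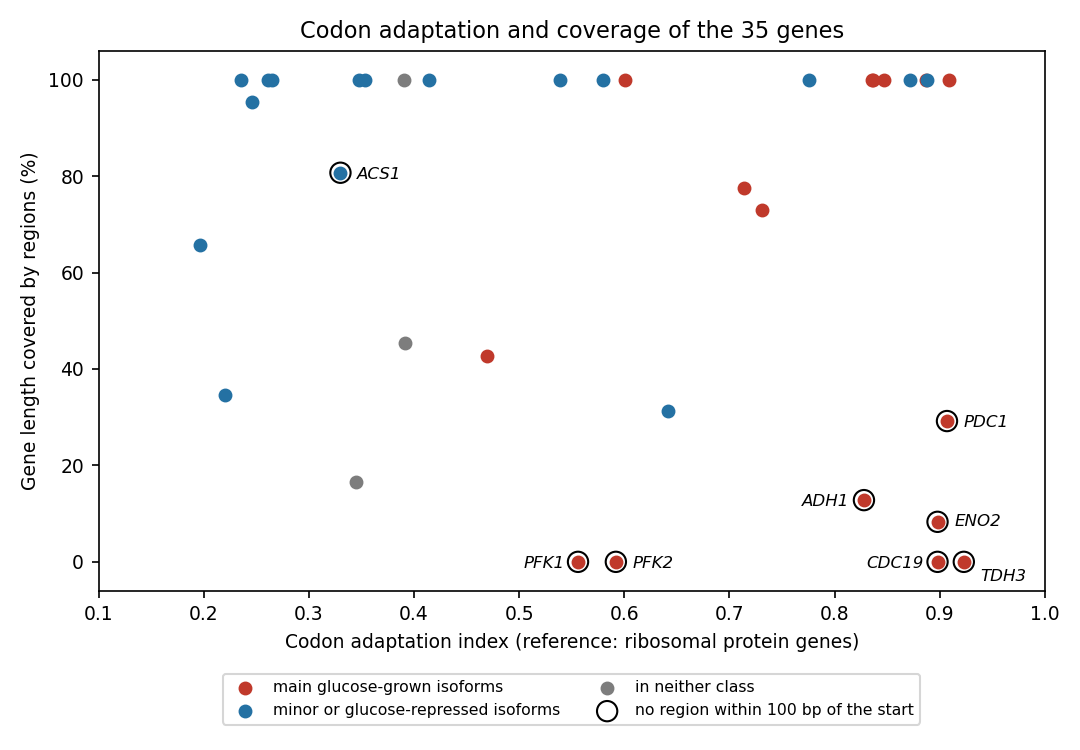
Codon adaptation index (x axis, no unit) and share of the gene length covered by H4K12ac regions (y axis, in %) for the 35 genes, 1 point per gene, coloured by class. Circles mark the 8 genes without a region within 100 bp of the start; TDH3 and TDH2, at 0.923 and 0.909, lie at 0 and 100% coverage.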

How the data were processed

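H4K12ac ChIP-seq reads of 50 bp were processed by the authors, who trimmed adapters (Cutadapt), mapped reads to sacCer3 (Bowtie2), called peaks (MACS2) on the H4K12ac samples without an H4 control and merged the peaks of all samples (bedtools merge, default parameters). The deposited list gives the start and end of each region, counted from 0 at the start, and these were converted to count from 1. The score column of the deposited file is 0 in every line and was not used. Depth per region is not held in the list, so no interval for counting error is given. Tool versions are not given in the sources used here.

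Chromosome names match R64, and no region passes a chromosome end. Overlap, covered share and distance were computed with Python 3.11.15, NumPy 2.4.6, pandas 2.3.3 and Matplotlib 3.10.9, and coding sequences were aligned with Biopython 1.88. The overlap code was tested on simulated regions. A 50-mer counted as repeated when it occurred more than 1 time in the reference on either strand. All 35 genes are named, as is each listed pathway gene without a region at its start. The genes, classes and lists were chosen with earlier results of these data known. The codon measure and the printed sequences were chosen after the regions had been examined. RNA-seq and H4 libraries were not analysed here. Alternatives changed the window, the overlap, the position of the start, the covered share required, and the regions or genes kept.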

Additional observations from a re-analysis of the deposited data

How the results depend on the processing

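Each of the 8 counts (a region at the start, and at least 95% of the gene covered, in the 35 genes, the main class, the minor class and all protein-coding genes) was computed again with other settings. This gave 56 values from settings listed at the outset and 20 from settings chosen after seeing the data. Most settings were repeated over these overlapping sets of genes, so the values are not independent. All 76 values were within 1.5 times the count given, but this limit says little about how stable the counts are. Starts with a region in 27 of 35, 15 of 16 and 5431 of 6002 genes could not rise beyond it under any setting. Counts were also compared where the number of genes in the set changed. Among the windows and region filters listed at the outset, main genes with a region at the start numbered 9 of 16, or 8 without the longest 5% of regions, which include that of GPM1. Leaving those regions out lowered the count from 27 to 24 of the 35 genes (77.1 to 68.6%) and from 5431 to 4565 of the 6002 protein-coding genes (90.5 to 76.1%). Minor genes numbered 14 to 16 of 16: 500 bp on each side added ACS1, a wholly covered window left out PCK1, and leaving out the longest regions left out TDH1. With TDH1, ENO1 and PDC5 moved to the main class, the counts were 12 of 19 main and 12 of 13 minor genes. No peak threshold or single library could be varied, as the list holds neither heights nor samples. A paired analysis was not possible for that reason.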

Other observations

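Genes outside the group with equally high codon adaptation were read after the values of the group had been seen, so this is a description. Besides the 13 genes of the group, the top 2% of all protein-coding genes by codon adaptation held 88 ribosomal protein genes and 20 other genes. Regions reached the start of 86 of the 88 ribosomal protein genes and of 14 of the 20 others. The 6 others without a region were TEF1 and TEF2, which encode the same translation elongation factor, EFT2, which encodes another elongation factor, PMA1, the plasma membrane proton pump, CCW12, a cell wall mannoprotein, and YDR524C-B. None of the 6 had a covered base. The start windows of TEF1, TEF2 and EFT2 held 34.2% repeated 50-mers each, and those of PMA1, CCW12 and YDR524C-B held none. The distance from the start to the nearest region was 1592 bp in PMA1 and 627 bp in CCW12. The part of repeated sequence at TEF1, TEF2 and EFT2 was not tested.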
